A study of Mus musculus with 6 samples.

Results

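Prrx1, Prrx2, Alx4, Pax9, Barx1, Pitx1, Lhx6 and Lhx8 are 8 transcription factors of the developing face and teeth. They were chosen by gene name and make up 8 of the 57010 genes in the count table. In mandibular-derived monocytes, 7 of the 8 had a mean level between 9.60 and 33.0 times that of femur-derived monocytes, and Lhx6 had 1.48 times. For Prrx2, Pax9, Barx1, Lhx6 and Lhx8 all femur counts came from 1 library, S15, so their ratios rest on it. The groups overlapped for Prrx2, Lhx6 and Lhx8. Prrx1 and Alx4 passed the test across all genes, as 3.88% of the genes tested did in that direction. Both reached the filter on low counts through the mandible libraries, so this comparison is in part set by it. Pax9 missed it at an adjusted p of 0.0666 in edgeR. The groups did not overlap for Prrx1, Alx4, Pax9, Barx1 and Pitx1. All mandible libraries also lay above all femur libraries in 12.7% of the genes tested, which do not include Barx1.

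The study asked how monocytes, the cells from which osteoclasts form, differ between skeletal sites in aged mice. RNA was sequenced in bulk from 3 femur libraries, named S13, S15 and S18, and 3 mandible libraries, named S16, S19 and S23. All came from untreated C57BL/6 mice (C57Bl/6J in the study's methods) of 1 year of age, whose marrow was flushed out of the dissected bones and enriched for monocytes with a magnetic kit. Male and female mice were used, but which animals, of which sex and how many, stand behind a library is not in the labels, so p-values measure the spread between these libraries only.

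Homeodomain, paired-box and LIM-homeodomain proteins bind DNA and set where genes are transcribed in the embryo. In the jaw they divide the mesenchyme of the pharyngeal arches, much of it from the cranial neural crest, into territories that later give rise to bone, teeth and connective tissue. The paired-type homeodomain proteins Prrx1, Prrx2 and Alx4 act in mesenchyme of the face and limbs, Pax9 and Barx1 in the mesenchyme of tooth germs, Pitx1 in the mandible and the hindlimb, and the LIM-homeodomain proteins Lhx6 and Lhx8 in the oral part of the jaw arches. None of the 8 is a marker of monocytes.

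The members lie at 8 separate places in the mouse genome (GRCm38, GENCODE M21 gene spans, matched by Ensembl identifier). Prrx1 (ENSMUSG00000026586) lies at chr1:163245119-163313710 on the minus strand and its paralog Prrx2 (ENSMUSG00000039476) at chr2:30834972-30881251 on the plus strand. On chromosome 2 too lie Lhx6 at chr2:36081953-36105408 on the minus strand and Alx4 at chr2:93642384-93681339 on the plus strand. Barx1 lies at chr13:48662998-48666507 on the plus strand and Pitx1 at chr13:55825051-55836192 on the minus strand. Pax9 lies at chr12:56691767-56712822 on the plus strand and Lhx8 at chr3:154306294-154330659 on the minus strand.

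The promoter of Prrx1, the member with the highest level, is shown with that of its paralog Prrx2, which was added after the values were seen because the pair differed in how evenly its counts were spread over the mandible libraries. Both windows run from 250 bases before to 50 bases after the start site in RefSeq (GRCm38.p6), are written 5′ to 3′ on the gene's strand, and lie at chr1:163313601-163313900 (minus) and chr2:30845117-30845416 (plus). Capitals mark TAATTA, a core that many homeodomain proteins bind, which was searched on both strands together with TAATCC, the core of bicoid-type proteins such as Pitx1, and TATAAA.
Prrx1: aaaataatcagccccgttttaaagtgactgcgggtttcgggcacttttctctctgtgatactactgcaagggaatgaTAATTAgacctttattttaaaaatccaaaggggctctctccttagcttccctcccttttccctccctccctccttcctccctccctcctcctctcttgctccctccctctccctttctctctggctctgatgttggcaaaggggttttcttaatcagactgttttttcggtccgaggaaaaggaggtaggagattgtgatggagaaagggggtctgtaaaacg
Prrx2: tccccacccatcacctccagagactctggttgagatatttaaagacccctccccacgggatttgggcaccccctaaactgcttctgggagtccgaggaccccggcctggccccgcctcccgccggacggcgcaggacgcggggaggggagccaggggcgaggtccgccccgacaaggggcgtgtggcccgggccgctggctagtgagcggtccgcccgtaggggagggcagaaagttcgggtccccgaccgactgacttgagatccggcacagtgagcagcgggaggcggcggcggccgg
The Prrx1 window held 1 TAATTA, 173 bases before the start site, and the Prrx2 window held none of the 3 motifs. Of the 32851 promoters in the table, 5.29% held TAATTA, 7.06% TAATCC and 13.6% TATAAA. Base composition also separated the pair. The Prrx2 window lies well inside the gene span given above, while that of Prrx1 lies at the start of its span. The contrasts between the windows therefore hold for these RefSeq start sites only. The Prrx1 window had 47.7% G or C and 6 CpG, near the medians of 52.7% and 7 over all promoters, and the Prrx2 window had 70.3% and 28. Among the other members in the table, the windows of Pax9 and Lhx8 had 47.0% G or C, and that of Barx1 had 84.7% with 50 CpG. RefSeq windows were found for 6 of the 8 members, with 3 start sites for Lhx6, 1 of which held TATAAA. Alx4 and Pitx1 were not among them.

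The libraries held 15718782 to 25371474 counts. Levels are given as counts per 1000000 (CPM), scaled by TMM. The limit set by a count of 0 is 3 counts, or 0.133 to 0.172 CPM depending on the library, and such limits cover counting error only. Library S15 stood apart from the rest: it had a count for 40494 genes, against 17481 to 23513 in the others. Of the 28239 genes at 0 in the 5 other libraries, 47.6% had a count in S15, while the same share was 0.518% to 2.74% for each other library. Library S23 was the only one with Xist at 1441 CPM, against at most 0.553 CPM elsewhere. It was also the only one without a count of the Y-linked Ddx3y, which had 46.4 to 75.1 CPM in the others. By these genes S23 had the pattern of female cells and every other library that of male cells. The mandible group thus mixed the sexes while the femur group did not. Monocyte markers were present in every library, with summed levels of 7000 to 13233 CPM in femur libraries and 6188 to 10634 CPM in the mandible. Of the 12 monocyte markers, 1 was called, Nr4a1, a nuclear receptor of patrolling monocytes, which was higher in the mandible (log2 fold change 1.25, edgeR adjusted p = 0.0468). That call was lost when any library but S15 was left out, with an adjusted p of up to 0.178.

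The summed level of the 8 members was 0.718, 7.33 and 1.02 CPM in femur libraries S13, S15 and S18, and 39.9, 57.1 and 83.3 CPM in mandible libraries S16, S19 and S23. All mandible sums lay above all femur sums. A count was found for 2 members in S13, for all 8 in S15 and for 2 in S18, and for 6, 8 and 8 members in S16, S19 and S23. In bulk RNA, fewer cells of a type and less RNA per cell cannot be told apart, so these levels do not say which cells held the transcripts.

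**Figure D1:**
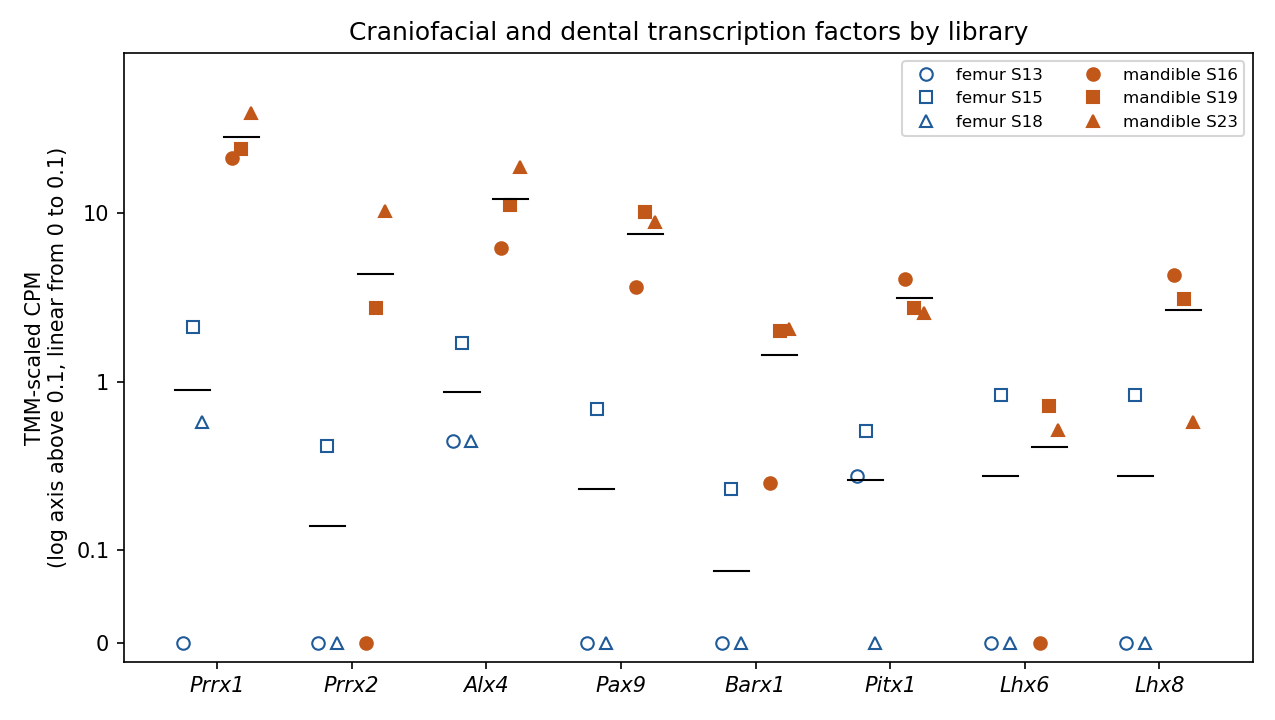
Level of each member in each library in TMM-scaled CPM, on an axis that is logarithmic above 0.1 CPM and linear below it. Open blue symbols are femur libraries, filled orange symbols are mandible libraries and black bars are group means (n = 3). The mandible symbols lie above all femur symbols for Prrx1, Alx4, Pax9, Barx1 and Pitx1, and they overlap them for Prrx2, Lhx6 and Lhx8.

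Across all genes, 18114 passed the filter on low counts and 5.18% of them were called, that is, had an adjusted p under 0.05 and at least a 2-fold difference. Higher levels in the mandible made up 3.88% of the genes tested. Of the 8 members, 6 passed the filter, and of these 2 were called higher and 0 lower in edgeR, while 4 of the 6 and 16.4% of all genes tested had an unadjusted p under 0.05. Barx1 and Prrx2 did not pass. All of the 6 but Lhx6 had enough counts in the mandible libraries alone to pass, and none had enough in the femur libraries alone. No median over them is therefore given. Their numbers of calls and of small p-values are also in part set by the filter, as are the shares beside them. Without S15, 3 of the 8 members were called higher, Prrx1, Alx4 and Pax9, where 5.11% of all genes tested were. In DESeq2, 4 of 6 members were called higher (Prrx1, Alx4, Pax9 and Pitx1), where 6.02% of genes were. Without the filter, 4 of 8 were called higher (Prrx1, Prrx2, Alx4 and Pax9), where 2.41% of genes were.

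The non-overlap of the groups was read for the members in the same way. In 5 members, Prrx1, Alx4, Pax9, Barx1 and Pitx1, all 3 mandible libraries lay above all 3 femur libraries. Among the tested members this held for Prrx1, Alx4, Pax9 and Pitx1, and over all genes tested for 12.7%. Barx1 did not pass the filter and has no part in that comparison. An exact two-sided permutation test gave each of these 5 members p = 0.1, the smallest that 3 libraries against 3 allow. Longer genes were called higher more often. Of 10 equal groups of genes by length, the longest, to which Prrx1 belongs, had 8.77% called higher, and the next, to which Alx4 belongs, had 7.12%. An alternative added after the data were seen entered each library's trend with gene length as an offset in the fit. With it Prrx1, Alx4 and Pax9 were called. In that fit 650 of 18114 genes tested were called higher.

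Prrx1, a homeodomain protein of limb and craniofacial mesenchyme that is also expressed by mesenchymal progenitors of adult bone and teeth, had the highest level of the members. It had 0, 46 and 13 counts in femur libraries S13, S15 and S18, and 428, 511 and 691 counts in mandible libraries S16, S19 and S23. In CPM this was 0, 2.12 and 0.574 in the femur and 21.4, 24.3 and 39.5 in the mandible. The lowest mandible library thus stood well above the highest femur library. Prrx1 rose in the mandible from 0.898 ± 1.10 CPM (SD, n = 3) to 28.4 ± 9.74 CPM (SD, n = 3). Its log2 fold change was 4.95 with a standard error of 0.94 (edgeR adjusted p = 0.00999). Without S15, the log2 fold change was 6.47 and the edgeR adjusted p was 0.00132. Without mandible library S19, the call was lost at an edgeR adjusted p of 0.0571, the largest of the 14 alternatives.

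Prrx2, whose protein acts together with Prrx1 in the mandible, was spread less evenly. It had 0, 9 and 0 counts in S13, S15 and S18, and 0, 58 and 180 counts in S16, S19 and S23. The mandible libraries ran from no count to 10.3 CPM, and 1 of them was level with the 2 femur libraries at 0. The means were 0.138 ± 0.239 CPM in femur libraries and 4.35 ± 5.33 CPM in the mandible (SD, n = 3 each), and the exact permutation test gave p = 0.4. Prrx2 did not pass the filter. Without the filter its log2 fold change was 4.91 (edgeR adjusted p = 0.0178), and without S15 it missed the threshold at an edgeR adjusted p of 0.0909.

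Alx4, a paired-type homeodomain protein of the frontonasal, skull and anterior limb mesenchyme, had 8, 37 and 10 counts in S13, S15 and S18. The mandible libraries S16, S19 and S23 had 124, 238 and 331 counts. Each mandible library was above each femur library, and Alx4 was the only member with a count in all 6. It rose from 0.863 ± 0.729 CPM to 12.1 ± 6.41 CPM (SD, n = 3 each), and its log2 fold change was 3.80 with a standard error of 0.77 (edgeR adjusted p = 0.0142). The call did not hold without S13, S18, S19 or S23, where the edgeR adjusted p was 0.0653, 0.0641, 0.0749 and 0.0852, nor in limma-voom, at 0.0690. Without S15 the edgeR adjusted p was 0.00406, and over the 14 alternatives the adjusted p ran from 1.52e-05 to 0.0852.

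Pax9, a paired-box protein needed for teeth to develop beyond the bud stage, had 0, 15 and 0 counts in S13, S15 and S18, and 73, 216 and 155 counts in S16, S19 and S23. All femur counts thus came from S15, while the mandible libraries held 3.65, 10.3 and 8.87 CPM. The means were 0.230 ± 0.399 CPM and 7.59 ± 3.48 CPM (SD, n = 3 each), with a log2 fold change of 4.99 and a standard error of 1.38 (edgeR adjusted p = 0.0666). Without S15 the remaining femur libraries were at 0. Against the limit of 3 counts per library, the mandible mean was then at least 50.9-fold higher (edgeR adjusted p = 0.00293). Over the 14 alternatives the adjusted p of Pax9 ran from 7.56e-05 to 0.253.

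Barx1, a homeodomain protein of the molar region of the jaw, had 0, 5 and 0 counts in S13, S15 and S18, and 5, 42 and 36 counts in S16, S19 and S23. Mandible library S16, with 0.250 CPM, was barely above femur library S15, with 0.230 CPM, and S19 and S23 had 1.99 and 2.06 CPM. The means were 0.0768 ± 0.133 CPM in femur libraries and 1.43 ± 1.03 CPM in the mandible (SD, n = 3 each). Barx1 passed the filter only when a library was left out, and without S15 its edgeR adjusted p was 0.151, with a mandible mean at least 9.62-fold above the limit of 3 counts.

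Pitx1, a bicoid-type homeodomain protein that specifies hindlimb identity and is also active in the mandible, had 5, 11 and 0 counts in S13, S15 and S18, and 82, 58 and 45 counts in S16, S19 and S23. It was higher in every mandible library, and unlike Prrx1 and Alx4 it was highest in S16. The means were 0.261 ± 0.254 CPM and 3.14 ± 0.836 CPM (SD, n = 3 each), with a log2 fold change of 3.56 and a standard error of 1.43 (edgeR adjusted p = 0.228). It was called in DESeq2 alone, at an adjusted p of 0.0476, and over the 14 alternatives the adjusted p ran up to 0.527. Its mean level was thus lower in cells from a hindlimb bone than in cells from the mandible, but the difference did not pass the edgeR test.

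Lhx8, a LIM-homeodomain protein of the oral jaw mesenchyme and of developing teeth, had 0, 18 and 0 counts in S13, S15 and S18. The mandible libraries S16, S19 and S23 had 86, 65 and 10 counts. S23, with 0.572 CPM, lay below S15, with 0.829 CPM, so the groups overlapped. The means were 0.276 ± 0.479 CPM and 2.65 ± 1.90 CPM (SD, n = 3 each), with a log2 fold change of 3.23 and a standard error of 1.80 (edgeR adjusted p = 0.437). Without S15 the mandible mean was at least 17.8-fold above the limit of 3 counts, and the edgeR adjusted p was 0.0578.

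Lhx6, the partner of Lhx8 in the jaw and a factor also known from interneurons, had the lowest level in the mandible. It had 0, 18 and 0 counts in S13, S15 and S18, and 0, 15 and 9 counts in S16, S19 and S23. The highest value of all was in a femur library, S15 with 0.829 CPM, and a mandible library, S16, had no count. The log2 fold change was 0.55 with a standard error of 2.22 (edgeR adjusted p = 0.953), and its sign changed without S18 or S19, to -0.01 and -0.15. An exact two-sided permutation test gave p = 1.0. No test found a difference in Lhx6 between the groups.

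The part of S15 in these results was measured on the members' lengths. In S15 the 8 members held 2.97 to 7.11 counts per kb of gene length. The 6916 genes of the same length range that had no count in the 5 other libraries held a median of 1.61 counts per kb in S15, with 6.81 at the 90th percentile. All members but Lhx8 lay between these values in S15. In S13 and S18 the members held at most 1.88 counts per kb.

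**Figure D2:**
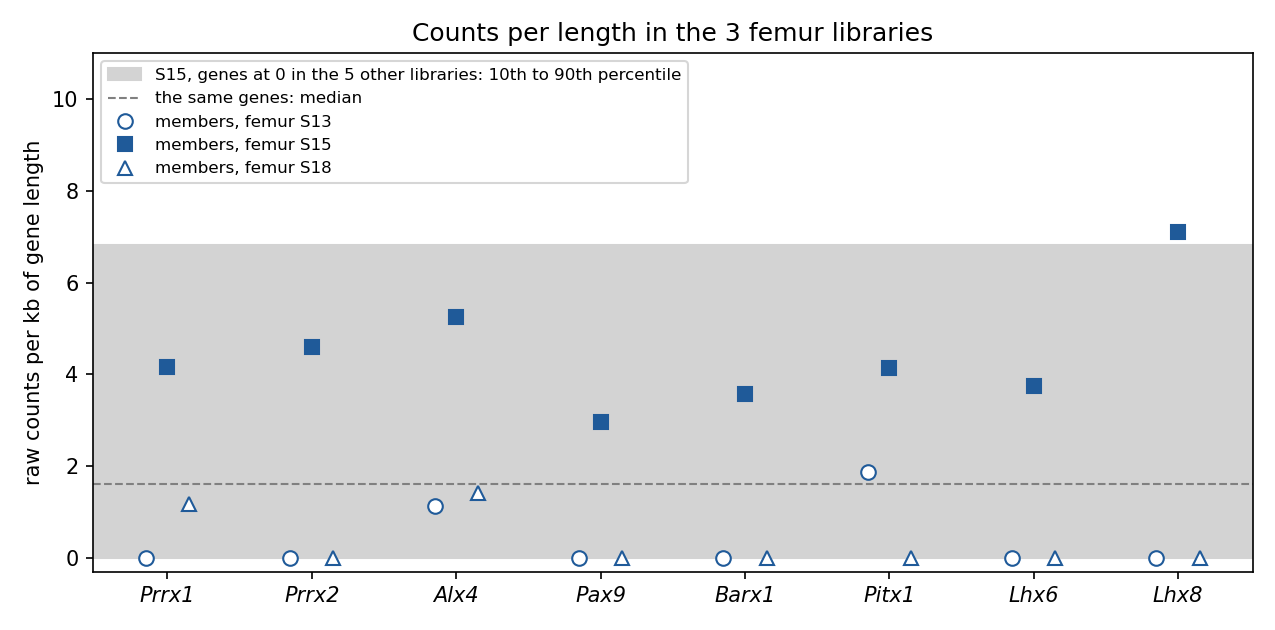
Raw counts per kb of gene length of the 8 members in femur libraries S13 (circles), S15 (filled squares) and S18 (triangles). The grey band runs from the 10th to the 90th percentile, 0 to 6.81 counts per kb, of 6916 genes of like length with no count in the 5 other libraries, and the dashed line is their median in S15, 1.61. In S15 all members but Lhx8 lie inside the band and above the median.

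Leaving out S15 raised the fitted fold change of all 6 tested members. The steps were largest for Pax9, Lhx6 and Lhx8, whose other femur libraries had no count. For these, and for Prrx2 and Barx1, the fitted value without S15 depends on the prior count and is no bound. Prrx1, Alx4 and Pitx1 kept a femur count, and the ratio of means went from 31.6 to 98.9 for Prrx1, from 14.1 to 27.5 for Alx4 and from 12.0 to 22.8 for Pitx1.

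**Figure D3:**
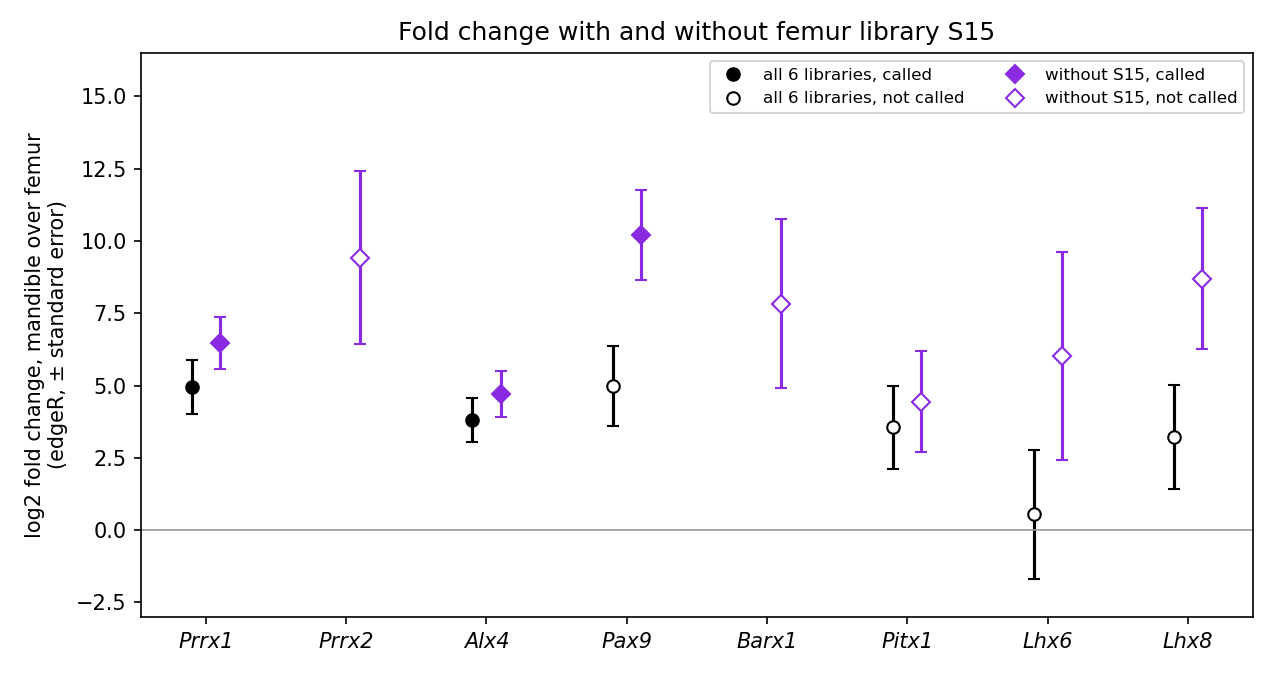
Log2 fold change of the mandible over the femur with its standard error (edgeR), from all 6 libraries (circles) and without femur library S15 (diamonds), with called genes filled. Prrx2 and Barx1 have no circle because they did not pass the filter with all 6 libraries. The diamonds of Prrx2, Pax9, Barx1, Lhx6 and Lhx8 rest on femur libraries without a count and depend on the prior count.

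Per length, in CPM per kb, the mandible levels of the members fell in the order Prrx1 (2.57 ± 0.880), Prrx2 (2.22 ± 2.72), Alx4 (1.72 ± 0.907), Pax9 (1.50 ± 0.688), Pitx1 (1.18 ± 0.315), Lhx8 (1.05 ± 0.752), Barx1 (1.03 ± 0.733) and Lhx6 (0.0851 ± 0.0765), each with the SD over 3 libraries. Neighbours in this order overlapped in their range over the libraries, except that Lhx6 lay below Barx1 in its whole range. The members were not highest in the same library. Prrx1, Prrx2, Alx4 and Barx1 were highest in S23, Pax9 and Lhx6 in S19, and Pitx1 and Lhx8 in S16. Lhx8 and Prrx2 ran in opposite orders over the mandible libraries: S16 held the most Lhx8 counts and no Prrx2 count, and S23 the reverse, with 180 Prrx2 counts and 10 of Lhx8. S23 is also the only library with the female pattern of Xist and Ddx3y, and the part of sex in the members' levels was not tested.

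The correlation of log2 CPM over the 6 libraries describes which members moved together, and since the 2 groups and S15 are shared by all genes, it is given without a test. Pearson's r was 0.988 between Alx4 and Pax9, 0.978 between Prrx1 and Alx4 and 0.972 between Prrx1 and Pax9. Pitx1 had r of 0.905 to 0.928 with these 3 members, and Lhx6 had r of 0.280 to 0.536 with the 5 others. The closest genes to Prrx1 were Mcc, Col17a1 and Smoc2 (r of 0.998 to 0.999), but 617 genes had an r over 0.95 with it. Closest to Alx4 were Entrep2, Fat4 and Rassf9, and to Pax9 Lrrc4b, Gpsm1 and Adamts12. Numa1, Sema3c and Kif1c were closest to Pitx1. For Lhx6 these were Csdc2, Cntn3 and Gm55369, the last pair with equal counts in every library, and for Lhx8 Pcdhb11, Pdgfrl and Slc8a1. Genes with an r over 0.95 numbered 672, 483, 300, 87 and 56 for Alx4, Pax9, Pitx1, Lhx6 and Lhx8.

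Genes that lie near the members on the chromosome were not called. Over all genes tested the share called was 5.18%, so 0 calls among so few neighbours say little about the members' surroundings. Within 150 kb of a member, a distance chosen after the data were seen, 29 genes were tested and edgeR called 0 of them, with log2 fold changes of -2.90 to 3.34, a median of -0.11 and a smallest adjusted p of 0.0791. Of the 16 nearest genes with a count, 1 on each side of each member, 7 had counts in S15 alone, and 6 were tested. Those beside Prrx2, Asb6 and Ptges (prostaglandin E synthase), had log2 fold changes of -0.29 and 1.12. Rbm18 beside Lhx6 had -0.80, Ptpdc1 beside Barx1 1.34 and Gorab beside Prrx1 0.42. The nearest counted gene downstream of Pax9, Prps1l3, lay 518 kb away, outside that window, and had -0.64.

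Genes overlap 4 of the members, and share exon bases with 2, Pitx1 and Pax9. Whether strand was used in counting is not given in the sources used here. The antisense gene Gm47071 shares 165 exon bases with Pitx1 and had 239, 66 and 129 counts in S13, S15 and S18 and 49, 60 and 16 counts in S16, S19 and S23, the opposite direction to Pitx1 (log2 fold change -1.81, edgeR adjusted p = 0.261). Slc25a21 shares 189 exon bases with Pax9 on the other strand and had 261, 52 and 44 counts in the femur libraries and 0, 30 and 61 in the mandible libraries (log2 fold change -1.93, edgeR adjusted p = 0.554). Gm37644, which lies inside Prrx1 on the same strand without shared exon bases, had 0, 11 and 8 counts in the femur libraries and 26, 63 and 81 in the mandible libraries (log2 fold change 3.34, edgeR adjusted p = 0.277). Ext2, a heparan sulfate synthesis enzyme on the other strand from Alx4 with no shared exon base, had a log2 fold change of 0.79 (edgeR adjusted p = 0.144). The counts of Pitx1 and Pax9 are uncertain by what such overlaps could add or remove.

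**Figure D4:**
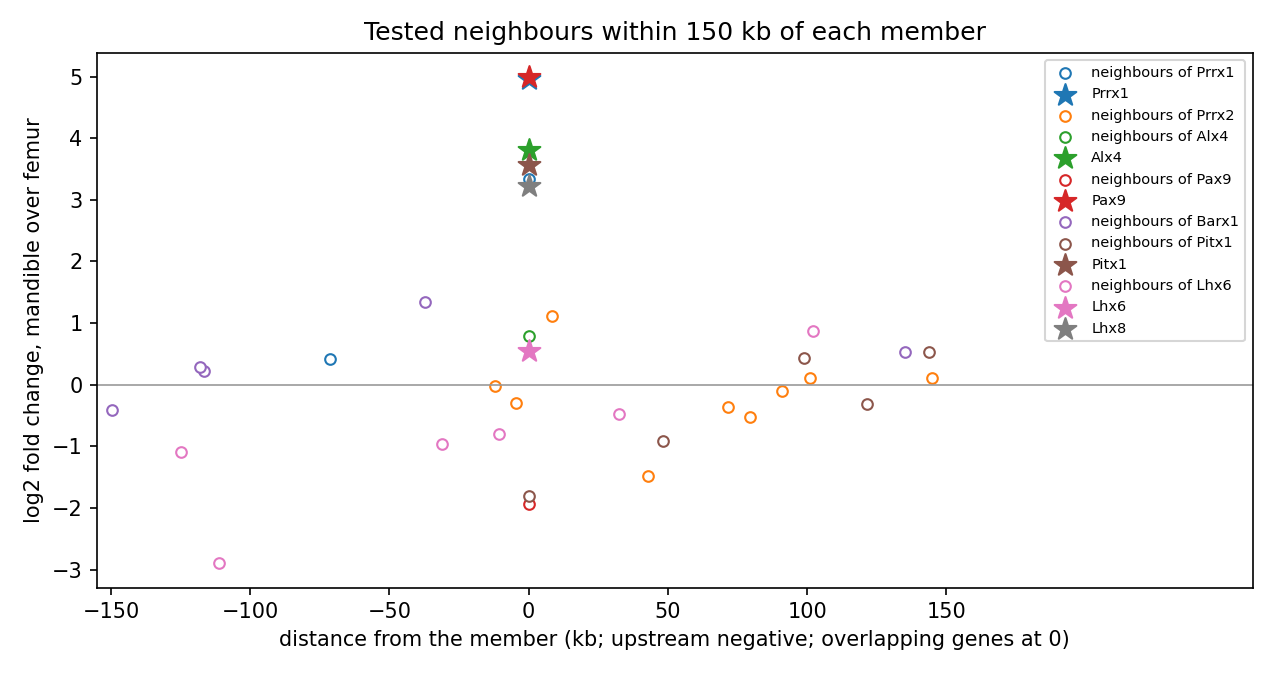
Log2 fold change of the mandible over the femur (edgeR, all 6 libraries) for the tested genes within 150 kb of a member, by distance in kb, with overlapping genes at 0 and the 6 tested members as stars. None of the 29 neighbours was called, where 5.18% of all genes tested were. The highest was Gm37644, inside Prrx1, at 3.34, and the next was Ptpdc1 at 1.34.

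The members belong to a wider set of factors of face and tooth development. Of 75 other such transcription factors, 44 passed the filter, and 17 of the 44 were called higher in the mandible and 0 lower. A log2 fold change above 0 was found in 43 of the 44, and in 8660 of all 18114 genes tested. The median over the 44 was 3.36, against -0.04 over all genes tested. Such lists hold genes that passed the filter through the mandible libraries alone, so their counts and medians are in part set by it. Without the filter this median was 2.29 over the 74 genes with a count. The median over all 42225 genes was then -1.09, but 13454 of them had counts in S15 alone and are fitted as lower in the mandible. Setting these medians side by side therefore does not remove the filter's part. Among those with the smallest p were Sp6, a factor of enamel-forming epithelium, Hand2, which patterns the distal mandible, and Creb3l1, a factor of matrix secretion in osteoblasts. Their log2 fold changes were 6.51, 7.40 and 3.07, and their edgeR adjusted p-values were 0.000139, 0.00102 and 0.00265. Trps1, the gene with the highest level among those not called, had a log2 fold change of 0.57. Without S15, 23 of 52 tested were called higher, and the count was 11 without S13 or S18, 6 without S19, 7 without S23 and 8 in limma-voom.

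Dlx and Msx homeobox genes code for factors that place the members' domains along the jaw. Of 9 such genes, 8 passed the filter, all with a log2 fold change above 0 and with a median of 5.28. Of the 8, 4 were called higher and 0 lower. Their summed level was 0 to 3.04 CPM in the femur libraries and 44.2 to 87.2 CPM in the mandible libraries. Msx1, which acts with Pax9 in tooth mesenchyme, had 0, 1 and 0 counts in S13, S15 and S18 and 155, 147 and 258 counts in S16, S19 and S23 (edgeR adjusted p = 0.000726). Dlx1 had 0, 2 and 0 counts in the same femur libraries and 93, 75 and 114 counts in the mandible libraries (edgeR adjusted p = 0.0130). Dlx3 and Dlx5 had log2 fold changes of 7.51 and 6.33. Msx2 was not called, with a log2 fold change of 4.17 (edgeR adjusted p = 0.185). Without S15, 6 of 8 were called higher, and the median was 9.48, a value that depends on the prior count. Dlx1 was not called without S13, S18, S19 or S23 (edgeR adjusted p of up to 0.0623), and Dlx5 was not called in limma-voom (adjusted p = 0.107).

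Signals of the pharyngeal arch and the tooth germ act upstream and downstream of the members. Of 26 such genes, 19 passed the filter, with a median log2 fold change of 2.66, and 15 of the 19 had a value above 0. Of the 19, 4 were called higher and 0 lower. Wnt5a (log2 fold change 6.64), Jag2 (4.03), Bmp7 (3.37) and Bmp4 (2.07) were called. Bmp4, whose expression in tooth mesenchyme depends on Pax9 and which restricts Barx1 in the early jaw, was close to the threshold (edgeR adjusted p = 0.0447) and was not called without S15 (0.0772). Its adjusted p over the 14 alternatives ran from 0.00258 to 0.188. The count of 4 was 2 without S13, S18, S19 or S23 and 1 in limma-voom. The adjusted p ran up to 0.145 for Bmp7, 0.0590 for Wnt5a and 0.0427 for Jag2 over the alternatives. Inhba was not called, with a log2 fold change of -0.19.

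Genes of the mesenchyme in which the members are active were mostly higher in the mandible. Of 16 such partner and target genes, 13 were called higher and 0 lower, and 15 had a log2 fold change above 0, with a median of 3.85. Col3a1, a fibrillar collagen, rose by 8.49 on the log2 scale, Postn, a matrix protein of the periodontal ligament, by 5.81, Fgfr1 by 4.90 and Pdgfra, a receptor of mesenchymal cells, by 3.72. Tnc was not called, with a log2 fold change of 1.03. Their summed level was 125 to 180 CPM in the femur libraries and 1719 to 4841 CPM in the mandible libraries. The sum rose in the order S16, S19, S23 that Prrx1 and Alx4 also had, but most of it was Col3a1, at 1173, 2422 and 3301 CPM. Fgfr1, Pdgfra and Tnc had that order too, while Postn was highest in S19.

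Homeodomain cofactors, proteins of the Pbx, Meis and Groucho families and others with which such factors act, were present in both groups. Of 23 such genes, 21 were tested and edgeR called 0, and 1 of them had an unadjusted p under 0.05. Their median log2 fold change was 0.05 and their summed levels were 750 to 769 CPM in femur libraries and 813 to 854 CPM in the mandible. Tle3, the one with the highest level, had a log2 fold change of 0.69 (edgeR adjusted p = 0.223).

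**Figure D5:**
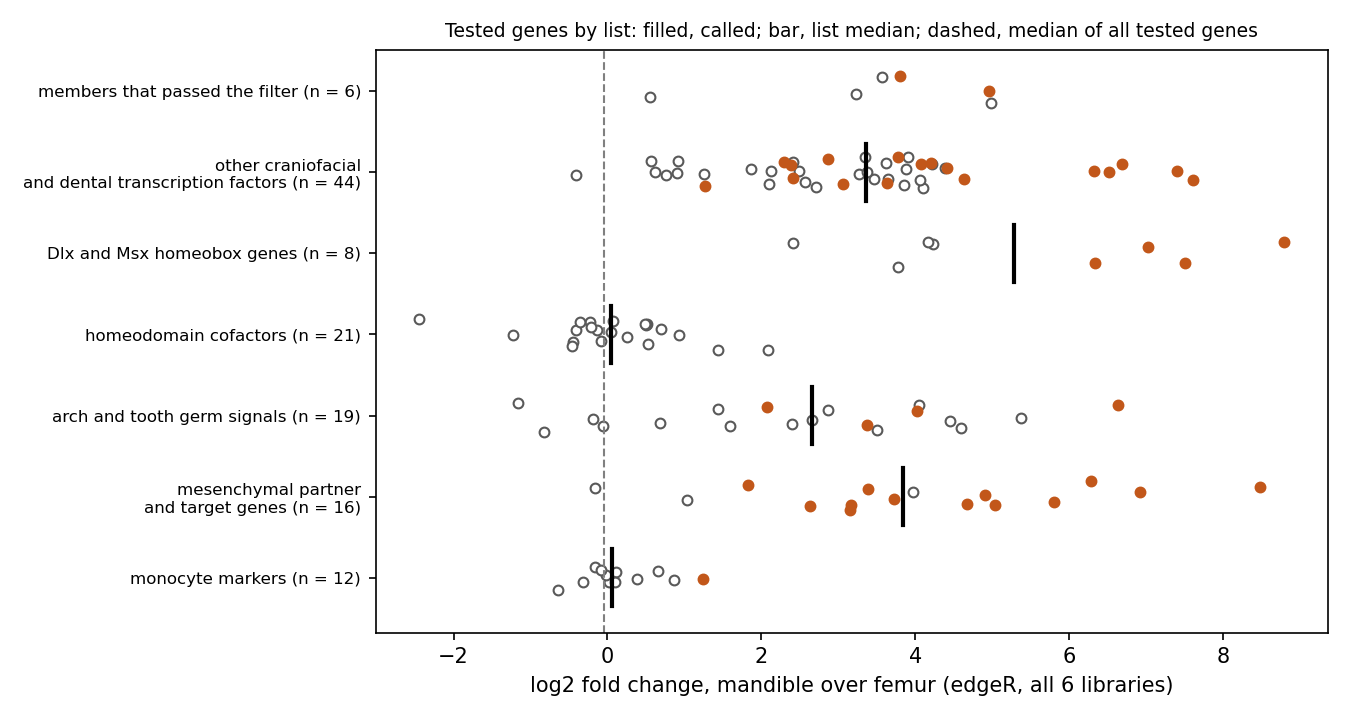
Log2 fold change of the mandible over the femur (edgeR, all 6 libraries) for each tested gene, by list. Filled points are called genes, open points are not called, black bars are list medians and the dashed line is the median of all genes tested, -0.04. No median is drawn for the members. The median of the Dlx and Msx genes (5.28) lies to the right of it, and that of the homeodomain cofactors (0.05) lies near it.

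Several lists of markers of other cell types that mandible marrow preparations could hold also had higher summed levels in the mandible. Dental epithelium and enamel markers had 9 of 16 tested genes higher, with summed levels of 11.6 to 16.6 CPM in femur libraries and 5873 to 11508 CPM in the mandible, and Odam was at 0 in all femur libraries. Odontoblast and dental pulp markers had 4 of 7 higher (33.4 to 57.8 against 4856 to 7122 CPM). Most of the mandible sum was Col1a1, at 4738, 5629 and 7038 CPM in S16, S19 and S23, so it is no measure of the other markers. Dspp, the defining matrix gene of odontoblasts, had a mean of 0.230 CPM in the femur, all of it from S15, and 18.9 CPM in the mandible. Periodontal ligament and tendon markers had 6 of 7 higher (5.04 to 7.46 against 261 to 385 CPM), and Tnmd was at 0 in all femur libraries. Osteoblast and osteocyte markers had 10 of 10 higher (156 to 198 against 2938 to 4947 CPM), and skeletal muscle markers 7 of 7 (6.10 to 41.7 against 1313 to 4375 CPM), among them Acta1, skeletal actin, at 0.502 and 1100 CPM.

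Other marker lists had fewer calls. Marrow stromal markers had 1 of 9 higher, Pdgfra, and 1 lower, Vcam1, with summed levels of 229 to 416 CPM in femur libraries and 132 to 327 CPM in the mandible, and Cxcl12 was not called (log2 fold change -1.42, edgeR adjusted p = 0.0840). Schwann cell and nerve markers had 1 of 6 higher (80.0 to 91.7 against 114 to 131 CPM). Vcam1 lost its call when any library but S15 was left out (edgeR adjusted p of up to 0.183), and without S15 it was 1 of 3 stromal markers called lower. The Schwann cell call was lost without S18, S19 or S23. The part of these cell types in the levels of the 8 members was not tested.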

How the data were processed

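The authors trimmed paired-end reads, mapped them with HISAT2 2.1.0 to a genome named GRCm38 and counted them per gene with featureCounts. The table they deposited holds raw counts for 6 libraries, which were checked to be whole. The version of the counter and the use of strand are not given in the sources used here. The table's gene intervals did not match GENCODE M21 for the 8 members, and the positions given are those of M21 for the same Ensembl identifiers.

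The test on these counts was edgeR's (version 4.0.16, R 4.3.3), with filterByExpr (minimum count 10, minimum total count 15), TMM, and a quasi-likelihood fit of 3 mandible against 3 femur libraries without covariates (prior count 0.125), and Benjamini-Hochberg adjustment over all genes tested. A call needed an adjusted p under 0.05 and at least a 2-fold difference. The scripts were tested on simulated data. Single members were also compared by an exact permutation test of log2(CPM + 0.5).

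The members and the 14 gene lists were chosen with earlier results of these data known. Besides the members, the text names by rule up to 4 called genes with the smallest p and the uncalled gene with the highest mean CPM in a list, the nearest neighbours, and the 3 genes most correlated with each member that passed the filter. Some genes that meet the rule are left out of the text. Odam, Cdh1, Epcam, Tbx4, Xist, Ddx3y and the genes overlapping a member were named after their values were seen. Alternatives were DESeq2 1.42.0, limma-voom (limma 3.58.1), RLE or no size factors, and no filter. Others were a mean CPM of at least 1, a prior count of 2, an adjusted p under 0.01 and leaving out each library. The last was a length correction, in which each library's loess trend with gene length was an offset in the fit. Depth was 15718782 to 25371474 counts per library.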

Additional observations from a re-analysis of the deposited data

How the results depend on the processing

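No paired analysis was possible because the labels do not give the animals behind each library. Against 938 genes called with all libraries, the total was 1548 in DESeq2, 1590 without the filter, 445 at an adjusted p under 0.01 and 434 to 1565 when 1 library was left out. Against 2 of 6 tested members called, the number was 4 of 6 in DESeq2, 1 of 6 in limma-voom and 4 of 8 without the filter. It was 1 at an adjusted p under 0.01 and 0 to 3 when 1 library was left out. Genes called higher numbered 702 of 18114 in the main fit, 1091 of 18114 in DESeq2, 507 of 18114 in limma-voom and 1019 of 42225 without the filter. Without S19 they were 376 of 19979, with 0 of 6 members called, and without S15 957 of 18742, with 3 of 8. Against 17 other craniofacial factors called, the number was 8 in limma-voom and 6 to 23 when 1 library was left out. Log2 fold changes with 1 library left out ran from 4.40 to 6.47 for Prrx1, 3.27 to 4.72 for Alx4, 4.42 to 10.22 for Pax9 and -0.15 to 6.03 for Lhx6. Alx4 missed the threshold in limma-voom (3.89). Pax9 passed it in DESeq2 (5.06), without the filter (5.01) and with the length correction (4.90), and Pitx1 in DESeq2 (3.61). The sign changed for Trps1 (-0.056), Slc8a1 (-0.089) and Lyz2 (0.0074) with the length correction, for Inhba in limma-voom (0.18) and, with 1 library left out, for Inhba (-0.71 to 0.31) and Csdc2 (-0.41 to 6.19), none of them called. The cause of these changes was not tested. Of 82 alternatives over the 6 tested members, 69 kept the direction and the side of the threshold. DESeq2 gave Lhx6 no adjusted p, and Lhx6 did not reach a mean CPM of 1. Depth limits the members with few counts: libraries held 0 to 86 counts of Lhx8, Pitx1, Barx1 and Lhx6. The median log2 fold change of all genes moved from -0.04 to -1.09 without the filter and to -0.18 with the length correction, and the members stayed above it in both. The value of -1.09 is in part set by 13454 genes with counts in S15 alone.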

Other observations

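Transcription factors of the hindlimb and of posterior position, the counterpart of the jaw factors for a femur, were scarce in both groups. Of 19 such genes, 15 had a count, 1 was tested and edgeR called 0, nor did any have an unadjusted p under 0.05. Hoxa9, a factor of blood progenitors as well as of posterior position, had 28, 38 and 18 counts in S13, S15 and S18 and 16, 14 and 5 counts in S16, S19 and S23 (log2 fold change -1.21, edgeR adjusted p = 0.768). The summed level of the list was 3.04, 9.17 and 1.63 CPM in S13, S15 and S18, and 0.801, 1.23 and 3.15 CPM in S16, S19 and S23. Tbx4, which acts with Pitx1 in the hindlimb, had 0, 26 and 0 counts in the femur libraries and 0, 5 and 44 counts in the mandible libraries.

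The excess of rarely counted genes in S15 also covered genes of sensory neurons. Of 2005 olfactory and vomeronasal receptor genes, 56.3% had a count in S15 and 0.299% to 3.94% in each other library. Groups of 3 libraries were not tested for outlying values.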
